A study of Mus musculus with 6 samples.

Results

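The synaptonemal complex and HORMA protein genes Sycp1, Sycp2, Sycp3, Syce1, Syce2, Syce3, Tex12, Hormad1 and Hormad2 were followed in mouse embryonic stem cells labelled as Max knockout and as wild type. These 9 genes were taken by symbol as a fixed list of components of the meiotic chromosome axis and of the synaptonemal complex, out of 55450 annotated genes in the files. RNA sequencing had been done on 3 libraries labelled Max-KO (genotype Max-/-) and 3 labelled WT (wild type), all of embryonic stem cells of strain C57BL/6, with no treatment, time or passage stated in the labels. Nothing in the labels says that the libraries of a group came from separate cultures or clones, so p-values measure the spread between these libraries, which may be technical. Levels are FPKM, fragment counts scaled to transcript length and to sequencing depth, so they can be compared between genes per length.

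In meiotic prophase each replicated chromosome folds along a protein axis made of cohesin, the lateral element proteins SYCP2 and SYCP3 and the HORMA domain proteins HORMAD1 and HORMAD2. SYCP1 forms the transverse filaments that join the axes of paired homologous chromosomes, and SYCE1, SYCE2, SYCE3 and TEX12 build the central element that holds the filaments together. These genes belong to the germ line, and in embryonic stem cells many germ line genes are kept low by the PRC1.6 complex, in which MAX pairs with MGA and E2F6 is another DNA-binding subunit. MAX bound to MYC or MGA recognises the E-box CACGTG.

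Max was listed at 35.79 to 43.40 FPKM in Max-KO and 41.60 to 50.20 FPKM in WT and was not called (limma adjusted p = 0.168). With median ratios it was called lower (−0.36, adjusted p = 0.0135), and the ranges overlapped as deposited, so the gene-level value does not check the genotype labels. The Y-linked genes Ddx3y, Eif2s3y, Kdm5d and Uty summed to 43.0 to 59.1 FPKM in Max-KO and 1.88 to 2.82 FPKM in WT. All 4 were higher, Ddx3y passing the filter through both groups and the others only through Max-KO, and a difference between cell lines and the genotype cannot be told apart here.

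Transcripts of 8 of the 9 genes were higher in the libraries labelled Max-KO, and that of Syce2 alone among them was lower. All 9 passed the threshold in limma (14650 genes, Benjamini-Hochberg adjusted p under 0.05). Of all genes tested, 66.2% passed it, 43.0% higher and 23.2% lower in Max-KO. The groups did not overlap for any of the 9, as for 72.0% of all genes tested (46.3% higher and 25.7% lower in Max-KO). Changes of at least 1 on the log2 scale in the higher direction were seen in 8 of the 9 and in 13.8% of all genes. The median log2 difference, Max-KO minus WT on log2(FPKM + 1), was 3.05 over the 9 and 0.21 over all genes. The median over all genes was 0.04 with median-ratio scaling, 0.41 when values were rescaled to TPM, and −0.02 with quantile normalization. Higher genes made up 64.9% of all calls, against 51.3% with median ratios, 76.9% as TPM and 46.7% with quantiles. Sycp2 and Tex12 passed the filter only through Max-KO, so that their direction was set by it. Each of the 9 kept its direction and its call under these scalings. In bulk RNA, fewer cells with a transcript and less of it per cell cannot be told apart.

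**Figure D1:**
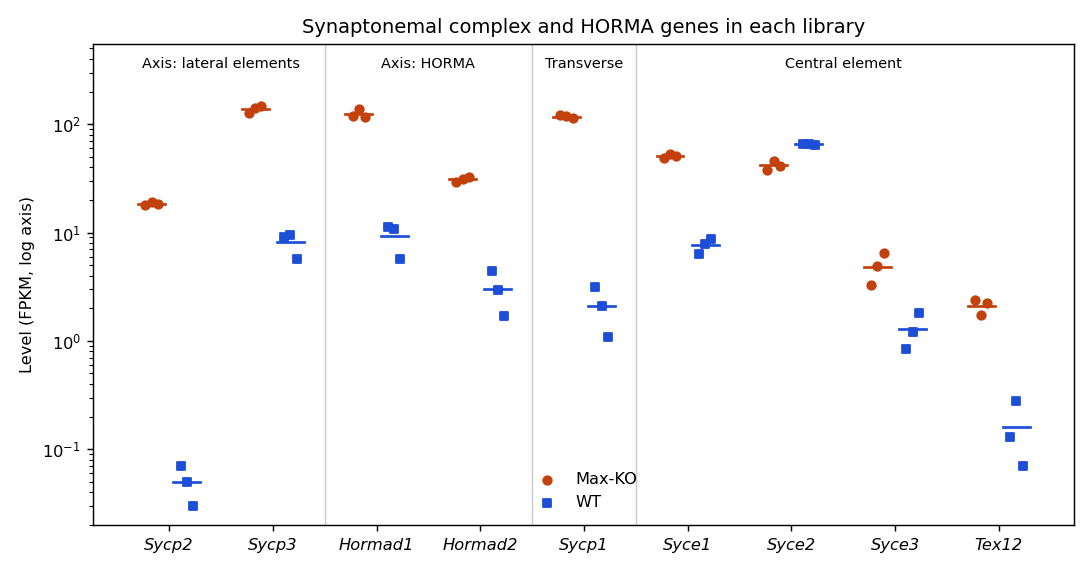
FPKM (log axis) of each gene in the 3 Max-KO libraries (circles) and the 3 WT libraries (squares), with a line at each group mean. Max-KO lies above WT for 8 genes, whereas Syce2 is at 37.73 to 46.18 FPKM in Max-KO and at 64.37 to 65.47 FPKM in WT.

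The promoters of all 9 genes were searched because MAX and E2F6 are sequence-specific, and those with an E-box are printed with that of Syce2. The promoters of Sycp2, Syce1, Syce3 and Hormad2, which were also higher in Max-KO, held none of the motifs and are not printed. Sequences are the 250 bases before the start of transcription in RefSeq, build GRCm38.p6, 5′ to 3′ on the strand of the gene. All 9 genes had an entry, and where RefSeq listed more than 1 start the one nearest to the GENCODE start was used. Capitals mark the E-box CACGTG, the E2F core TCCCGC, which reads GCGGGA on the other strand, and the T-box core AGGTGT, which is printed in Sycp3 alone of these sequences. The axis genes Sycp3 (chr10:88459337-88459586, plus strand) and Hormad1 (chr3:95559427-95559676, plus strand), the transverse filament gene Sycp1 (chr3:102936101-102936350, minus strand) and the central element gene Tex12 (chr9:50561269-50561518, minus strand) each carried an E-box. Syce2 (chr8:84871861-84872110, plus strand), the gene that was lower in Max-KO, is given beside them.
Sycp3: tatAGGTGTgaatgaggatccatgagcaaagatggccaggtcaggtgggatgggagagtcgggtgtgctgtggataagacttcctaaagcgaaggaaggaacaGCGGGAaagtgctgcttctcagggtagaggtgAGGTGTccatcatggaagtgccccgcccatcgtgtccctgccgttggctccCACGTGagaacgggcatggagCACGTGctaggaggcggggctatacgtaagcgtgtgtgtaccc
Hormad1: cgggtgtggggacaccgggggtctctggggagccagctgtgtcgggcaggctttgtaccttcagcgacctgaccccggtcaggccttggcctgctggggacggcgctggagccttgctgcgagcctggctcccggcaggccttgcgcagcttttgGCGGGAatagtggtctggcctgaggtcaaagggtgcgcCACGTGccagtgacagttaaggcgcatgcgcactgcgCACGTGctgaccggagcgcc
Sycp1: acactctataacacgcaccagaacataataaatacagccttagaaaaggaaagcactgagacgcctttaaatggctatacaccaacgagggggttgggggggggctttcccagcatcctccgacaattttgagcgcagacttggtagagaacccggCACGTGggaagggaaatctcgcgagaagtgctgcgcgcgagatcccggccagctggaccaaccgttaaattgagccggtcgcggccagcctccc
Tex12: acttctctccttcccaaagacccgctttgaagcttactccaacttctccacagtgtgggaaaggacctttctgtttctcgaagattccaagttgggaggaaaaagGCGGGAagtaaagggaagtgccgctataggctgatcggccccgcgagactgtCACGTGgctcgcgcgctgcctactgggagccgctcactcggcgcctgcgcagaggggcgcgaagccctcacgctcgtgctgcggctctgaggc
Syce2: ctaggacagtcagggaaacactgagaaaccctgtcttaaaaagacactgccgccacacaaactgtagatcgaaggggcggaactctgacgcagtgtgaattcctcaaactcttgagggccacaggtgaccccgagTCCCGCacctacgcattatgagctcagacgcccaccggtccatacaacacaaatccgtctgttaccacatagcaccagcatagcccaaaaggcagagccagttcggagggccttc

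In the window from 250 bases before to 50 bases after the start, 4 of the 9 genes held CACGTG, against 8.07% of 16502 protein-coding promoters searched on both strands. Sycp3 had it 64 and 43 bases before the start and Hormad1 57 and 20 bases before. The single E-box of Sycp1 began 94 bases and that of Tex12 93 bases before the start. Having 2 or more E-boxes in the window, as Sycp3 and Hormad1 did, was seen in 0.788% of promoters. The E2F core was found in 5 of the 9 windows (Sycp1, Sycp3, Syce2, Tex12 and Hormad1) and in 26.7% of promoters. In Sycp1 it lay just past the start and is not in the printed letters. Both the E-box and the E2F core were in 4 of the 9 windows and in 2.82% of promoters. The T-box core AGGTGT, read as ACACCT on the other strand, was in 1 of the 9, Sycp3, and in 12.8% of promoters. Sycp2, Syce1, Syce3 and Hormad2 had no match to any of the 3 motifs in this window. RefSeq lists a second start of Syce2, 147 bases downstream, whose window held 1 E-box and 2 E2F cores. The ratio of observed to expected CpG ran from 0.22 in Syce3 to 0.91 in Tex12, with a median of 0.60 over all promoters. These matches are letters in a window and do not show that a factor was bound.

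Among the axis genes, Sycp3 encodes the lateral element protein that packs meiotic chromosomes into loops along an axis (ENSMUSG00000020059; GRCm38 chromosome 10, 88459569 to 88473236, plus strand). Its level was 127.09, 141.87 and 146.23 FPKM in Max-KO 1 to 3, against 9.10, 9.57 and 5.69 FPKM in WT 1 to 3. Every Max-KO library stood far above every WT library, and WT 3 was the lowest of all. The log2 difference was 3.96 ± 0.18 (SE; 95% interval 3.54 to 4.38; limma adjusted p = 6.79e-06), and the ratio of group means was 17.

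Sycp2, the partner of SYCP3 in the lateral element (ENSMUSG00000060445; chromosome 2, 178345293 to 178407685, minus strand), was close to silent in wild-type cells. It was listed at 17.98, 19.00 and 18.44 FPKM in Max-KO 1 to 3 and at 0.07, 0.05 and 0.03 FPKM in WT 1 to 3. The Max-KO values differed little among themselves, and the WT values stood for an estimated 4 to 10 fragments per library. The log2 difference of 4.21 ± 0.09 (SE; limma adjusted p = 6.50e-07) understates the change at such low levels, and it was 6.96 with a pseudocount of 0.1 FPKM. Sycp2 entered the test only through its level in Max-KO, so the filter set its direction.

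Hormad1, which marks axes not yet joined to a partner (ENSMUSG00000028109; chromosome 3, 95559677 to 95587671, plus strand), reached 119.06, 137.27 and 115.49 FPKM in Max-KO 1 to 3, against 11.29, 10.83 and 5.74 FPKM in WT 1 to 3. The lowest WT library was again WT 3, and the groups did not overlap. The log2 difference was 3.65 ± 0.24 (SE; 95% interval 3.08 to 4.22; limma adjusted p = 4.18e-05). Hormad2, which works with HORMAD1 in sensing chromosomes that have not paired (ENSMUSG00000020419; chromosome 11, 4345814 to 4441105, minus strand), had 29.44, 30.92 and 32.23 FPKM in Max-KO 1 to 3, and 4.37, 2.93 and 1.71 FPKM in WT 1 to 3. It rose by 3.05 ± 0.23 on the log2 scale (SE; limma adjusted p = 5.08e-05). Hormad1 was the more abundant of the pair in every library: the ratio of Hormad1 to Hormad2 was 3.58 to 4.44 in Max-KO and 2.58 to 3.70 in WT, ranges that overlap.

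Sycp1, the transverse filament (ENSMUSG00000027855; chromosome 3, 102818499 to 102936100, minus strand), showed the largest log2 difference of the 9 on the log2(FPKM + 1) scale and the 11th largest of all 14650 genes. With a pseudocount of 0.1 FPKM that of Sycp2 was larger, 6.96 against 5.85 for Sycp1. Its level was 120.50, 117.92 and 113.76 FPKM in Max-KO 1 to 3, against 3.14, 2.11 and 1.09 FPKM in WT 1 to 3. The groups were far apart: Max-KO libraries were within 1.06-fold of one another, while WT libraries spanned 2.88-fold. The log2 difference was 5.30 ± 0.23 (SE; 95% interval 4.75 to 5.86; limma adjusted p = 7.74e-06), a ratio of group means of 55.5. Without WT 3, the lowest library, it was 5.04.

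The 4 central element genes differed from one another in level and in direction. Syce1, which links the transverse filaments in the midline (ENSMUSG00000025480; chromosome 7, 140777229 to 140787852, minus strand), had 48.51, 53.23 and 50.69 FPKM in Max-KO 1 to 3 and 6.40, 7.82 and 8.74 FPKM in WT 1 to 3. Here WT 3 was the highest of its group, unlike for the axis genes. The log2 difference was 2.59 ± 0.11 (SE; limma adjusted p = 4.25e-06).

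Syce2, which assembles with TEX12 into the fibres of the central element (ENSMUSG00000003824; chromosome 8, 84872111 to 84888221, plus strand), was the most abundant of the 9 genes in WT. It had 37.73, 46.18 and 41.29 FPKM in Max-KO 1 to 3, against 65.47, 65.36 and 64.37 FPKM in WT 1 to 3. The WT libraries were almost equal and all above the highest Max-KO library. Syce2 fell by 0.63 on the log2 scale (log2 difference −0.63 ± 0.08 SE; 95% interval −0.82 to −0.45; limma adjusted p = 3.56e-04). Its log2 difference ranged from −0.83 to −0.43 over all settings tried and was called in each. In WT it ranked above 93.0% of protein-coding genes by mean level, and in Max-KO above 88.6%.

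Tex12, the partner of SYCE2 (ENSMUSG00000032065; chromosome 9, 50556819 to 50561325, minus strand), was the least abundant of the 9 in Max-KO. It was listed at 2.38, 1.74 and 2.24 FPKM in Max-KO 1 to 3 and at 0.13, 0.28 and 0.07 FPKM in WT 1 to 3. The WT values stood for an estimated 1 to 5 fragments per library, and the groups did not overlap. The log2 difference was 1.43 ± 0.14 (SE; limma adjusted p = 1.36e-04), was 3.16 with a pseudocount of 0.1 FPKM and was 0.83 under quantile normalization, and here too the filter set the direction. Syce3, a small protein needed to start central element assembly (ENSMUSG00000078938; chromosome 15, 89390174 to 89410503, minus strand), had 3.25, 4.87 and 6.45 FPKM in Max-KO 1 to 3 and 0.84, 1.21 and 1.81 FPKM in WT 1 to 3. Its transcript of at most 480 bases drew an estimated 17 to 39 fragments per Max-KO library and 4 to 9 per WT library, and the spread within each group was wide. The log2 difference of 1.34 ± 0.24 (SE; 95% interval 0.77 to 1.91) had the weakest support of the 9 (limma adjusted p = 0.00218).

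**Figure D2:**
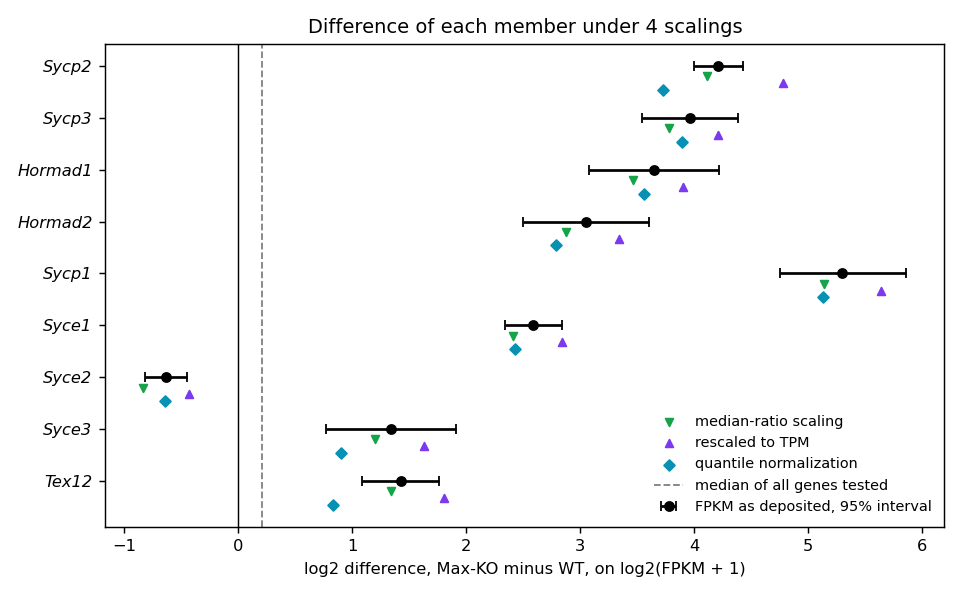
Log2 difference, Max-KO minus WT on log2(FPKM + 1), of each gene with its 95% interval from limma (circles, bars), and the same difference after 3 other scalings (coloured marks); the dashed line is the median of all genes tested, 0.21. Sycp1 lies highest at 5.30 on this scale, Syce2 is below 0 under every scaling, and no other gene is.

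Ordered by mean level in Max-KO, the genes ran Sycp3 (138 ± 10 FPKM, SD, n = 3), Hormad1 (124 ± 11.7), Sycp1 (117 ± 3.40), Syce1 (50.8 ± 2.36), Syce2 (41.7 ± 4.24), Hormad2 (30.9 ± 1.40), Sycp2 (18.5 ± 0.511), Syce3 (4.86 ± 1.6) and Tex12 (2.12 ± 0.336). The ranges of Sycp3 and Hormad1 overlapped, as did those of Hormad1 and Sycp1, and every other pair of neighbours in this order was apart. In WT the order was Syce2 (65.1 ± 0.606 FPKM, SD, n = 3), Hormad1 (9.29 ± 3.08), Sycp3 (8.12 ± 2.12), Syce1 (7.65 ± 1.18), Hormad2 (3.0 ± 1.33), Sycp1 (2.11 ± 1.03), Syce3 (1.29 ± 0.490), Tex12 (0.160 ± 0.108) and Sycp2 (0.05 ± 0.02). There only Syce2 stood apart from the next gene at the top of the order, and Hormad1, Sycp3 and Syce1 overlapped step by step, as did Hormad2, Sycp1 and Syce3, and Tex12 and Sycp2.

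The summed level of the 9 genes was 529 ± 23.6 FPKM in Max-KO and 96.7 ± 6.49 FPKM in WT (SD, n = 3), or 0.0811% and 0.0128% of the summed FPKM of a library. The make-up of that sum, which does not depend on scaling between libraries, was not alike in the groups. Syce2 held 7.88 ± 0.448% of it in Max-KO and 67.4 ± 4.06% in WT. Sycp3 held 26.2 ± 1.39% in Max-KO and 8.32 ± 1.70% in WT, Hormad1 23.4 ± 1.45% and 9.48 ± 2.65%, and Sycp1 22.2 ± 1.37% and 2.15 ± 0.947%. The share of Syce1 was 9.61 ± 0.0207% in Max-KO and 7.98 ± 1.73% in WT, and the WT range of 6.35% to 9.79% took in all 3 Max-KO values.

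**Figure D3:**
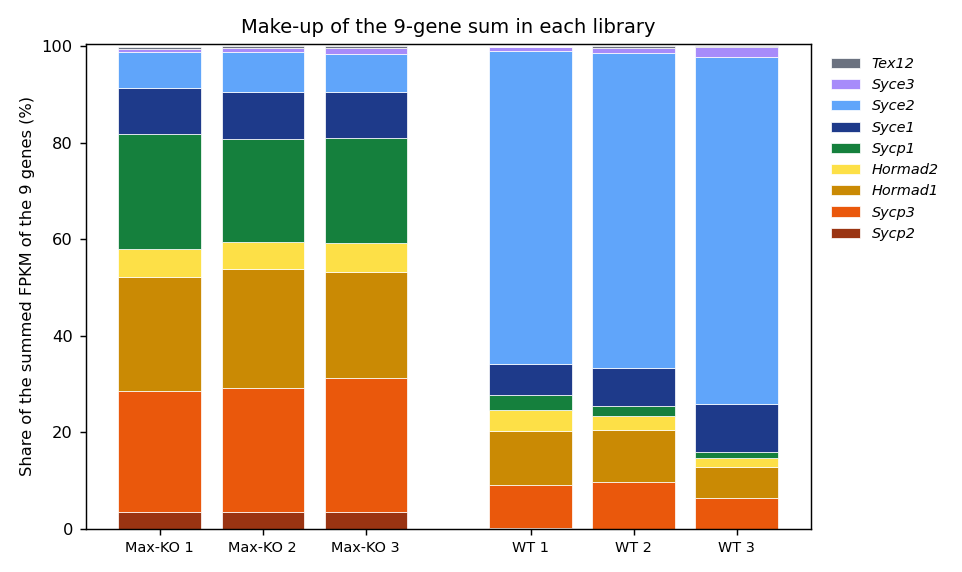
Share (%) of each gene in the summed FPKM of the 9 genes, 1 bar per library, with Max-KO 1 to 3 on the left and WT 1 to 3 on the right. Syce2 takes 7.46% to 8.35% of each Max-KO bar and 64.9% to 72.1% of each WT bar.

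Ratios within a library between genes whose proteins work together do not depend on scaling either. Sycp1 over Sycp3, the filament over the axis it anchors in, was 0.778 to 0.948 in Max-KO and 0.192 to 0.345 in WT. Sycp3 over Sycp2 was 7.07 to 7.93 in Max-KO and 130 to 191 in WT, the WT ratio resting on few Sycp2 fragments. Within the central element, Syce1 over Syce2 was 1.15 to 1.29 in Max-KO and 0.0978 to 0.136 in WT, so that Syce1 was the more abundant transcript in every Max-KO library and Syce2 in every WT library. Tex12 over Syce2 was below 1 in both groups but higher in Max-KO without overlap, 0.0377 to 0.0631 in Max-KO and 0.00109 to 0.00428 in WT. The WT ratio rests on an estimated 1 to 5 Tex12 fragments per library. Syce3 over Syce1 was 0.067 to 0.127 in Max-KO and 0.131 to 0.207 in WT, the only one of these ratios that was lower in Max-KO with Sycp3 over Sycp2.

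WT 3 was the lowest WT library for 7 of the 9 genes and the highest for Syce1 and Syce3. Max-KO 1 was the lowest Max-KO library for 6 genes and the highest for Sycp1 and Tex12. All 9 calls held without WT 3.

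Genomic neighbours were looked at because reads of overlapping genes cannot be told apart where strand is not known, and the labels do not say whether the kit kept strand. Sycp3 lies within the span of Chpt1, a phospholipid synthesis gene on the other strand, and shares 660 exonic bases with it. Chpt1 was listed at 9.61 to 10.39 FPKM in Max-KO and 4.17 to 5.11 FPKM in WT, a log2 difference of 0.93 ± 0.10 (SE; limma adjusted p = 1.79e-04), far below the level of Sycp3 in Max-KO. In WT the levels lay closer, with Sycp3 at 5.69 to 9.57 FPKM, and sharing of reads was not tested. Syce2 overlaps Gcdh, a mitochondrial dehydrogenase gene, but shares 0 exonic bases with it, and Gcdh was not called (log2 difference 0.13 ± 0.08 SE; limma adjusted p = 0.167). Tex12 lies within the span of Il18, a cytokine gene with no shared exonic base, which was at 0 to 0.11 FPKM in Max-KO and 0 to 0.18 FPKM in WT. The pseudogenes within Sycp1 (Gm42816, Gm33952 and Gm33866) and Syce1 (Gm29799) were at most at 3.24 FPKM in any library. Gm33952, listed at 0 in WT, was called higher (1.17, limma adjusted p = 0.0272), and Gm42816 was not called. Both passed the filter only through Max-KO, so that their direction was fixed. Gm33952 was highest in Max-KO 2, at 3.24 FPKM against 0.55 and 0.72 FPKM in Max-KO 1 and 3. Its call was lost without any 1 of the WT libraries, without a filter (adjusted p = 0.052) and with quantiles (0.17).

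Protein-coding neighbours moved in both directions. Of 21 overlapping or adjacent protein-coding genes, 14 were tested, of which 5 were higher and 5 lower in Max-KO, against 43.0% higher and 23.2% lower over all genes tested. Of these 10 called genes, 6 moved in the direction of their member and 4 in the opposite one. Chpt1, which shares exonic bases with Sycp3, is among the 5 higher and among the 6. Farsa, a subunit of phenylalanyl-tRNA synthetase beside Syce2, had 31.36 to 33.35 FPKM in Max-KO and 50.74 to 58.30 FPKM in WT (log2 difference −0.72 ± 0.07 SE; limma adjusted p = 1.02e-04), a fall of about the size of that of Syce2. Golph3l next to Hormad1 (−0.60), Gnptab next to Sycp3 (−0.63), Cpt1b next to Syce3 (−1.05, passing the filter through WT only) and Sdhd next to Tex12 (−0.32) were called lower beside a member that was higher. The call of Sdhd was lost as TPM (adjusted p = 0.0543). Tspan2 next to Sycp1 (1.65), Ppp1r3d next to Sycp2 (1.12), Mybpc1 next to Sycp3 (1.35) and Mtmr3 next to Hormad2 (0.27) were called higher. For Tspan2, Ppp1r3d and Mybpc1 the filter set the direction, since they passed it only through Max-KO. The call of Mtmr3 was lost with median ratios (adjusted p = 0.35) and quantiles (0.15). Phactr3, Zfp941 and Lif were not called. In the log2 difference, each member that was higher exceeded all of its tested neighbours.

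**Figure D4:**
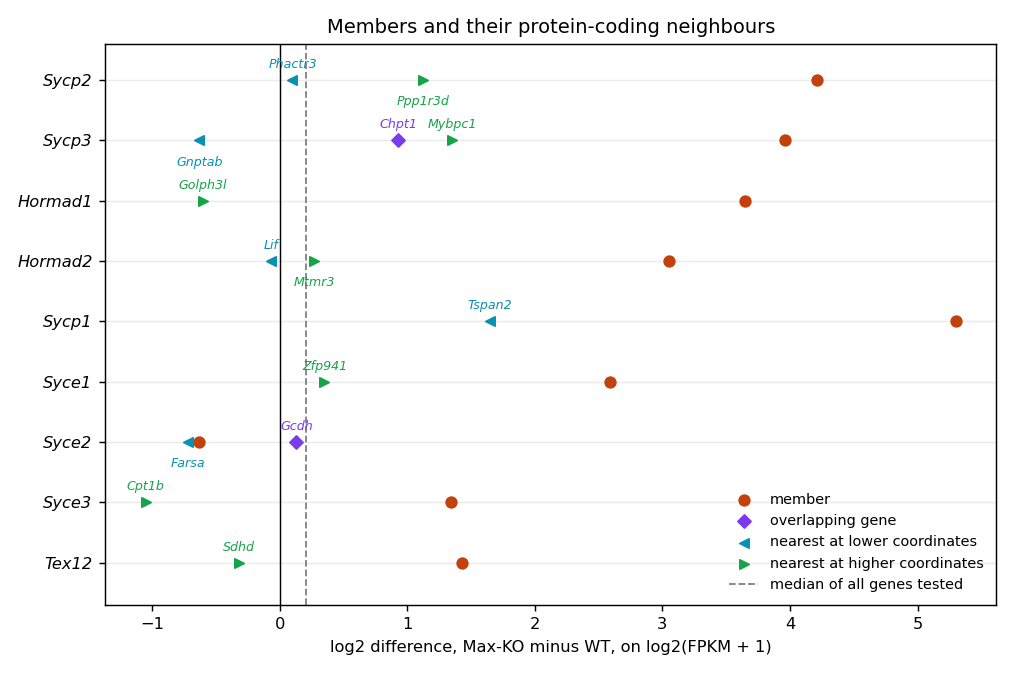
Log2 difference, Max-KO minus WT on log2(FPKM + 1), of each member (circles) and of its tested protein-coding neighbours, overlapping (diamonds) or nearest at lower and higher coordinates (triangles). Members other than Syce2 lie to the right of their neighbours, while Syce2 (−0.63) and Farsa (−0.72) lie together.

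Other genes of the complex and the axis were taken as a list of partners. Of 8 such genes 7 were tested, of which 6 rose and none fell. Over all genes tested 43.0% were higher and 23.2% lower. Mad2l1bp was not called, and Rnf212 was below the filter at 0.58 to 0.92 FPKM in Max-KO and listed at 0 in WT. The median log2 difference of the 7 tested was 1.34. Fkbp6, a co-chaperone found on meiotic chromosome cores, was at 142.23 to 143.39 FPKM in Max-KO and 1.05 to 1.87 FPKM in WT (log2 difference 5.91, limma adjusted p = 6.03e-07). Sycp2l, a paralog of Sycp2 known from oocytes, averaged 2.92 ± 0.520 FPKM in Max-KO and 0.570 ± 0.594 FPKM in WT (SD, n = 3; log2 difference 1.37). Sycp2l and Ccdc36, both among the 6, were tested only because of their Max-KO level, so that their direction was fixed. 4930447C04Rik, which encodes the central element protein SIX6OS1, averaged 63.6 ± 4.22 FPKM in Max-KO and 25.4 ± 7.85 FPKM in WT (1.34). Ccnb1ip1 (HEI10), a ubiquitin ligase of crossover sites, differed by 1.89. Trip13, the ATPase that removes HORMADs from joined axes and is named here after its values were seen, rose by 0.43 (limma adjusted p = 8.88e-04).

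Of 4 HORMA domain genes with roles outside meiosis, 1 was higher, 1 lower and 2 were not called. Of the 4, Atg13 of the autophagy initiation complex rose (74.4 ± 6.26 FPKM in Max-KO and 34.4 ± 1.80 FPKM in WT, SD, n = 3; log2 difference 1.09, limma adjusted p = 3.02e-05). Mad2l2 (REV7) of translesion synthesis fell by 0.51 (limma adjusted p = 0.0292). Leaving out Max-KO 1 ended that call (adjusted p = 0.0914), as did leaving out WT 3 (0.0548), rescaling to TPM (0.114) and dropping the filter (0.0616). The mitotic checkpoint gene Mad2l1 was at 64.80 to 66.73 FPKM in Max-KO and 60.47 to 64.90 FPKM in WT, and Atg101 at 48.65 to 50.68 FPKM in Max-KO and 45.29 to 51.81 FPKM in WT, neither of them called. The median over the 4 was 0.05, against 0.21 over all genes tested, of which 43.0% were higher and 23.2% lower.

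Cohesin forms the base of the axis on which SYCP2, SYCP3 and the HORMADs load. All 4 meiotic subunits tested rose: Stag3 (115 ± 13.3 FPKM in Max-KO and 6.44 ± 2.48 FPKM in WT, SD, n = 3; log2 difference 4.01), Smc1b (3.25), Rad21l (1.15) and Rec8 (1.12). The call of Rad21l, which passed the filter only through Max-KO, was lost with quantiles (adjusted p = 0.0742), as was that of the mitotic subunit Stag2 (0.0574). Of the 5 mitotic subunits Stag1 (0.97), Rad21 (0.80) and Stag2 (0.50) rose, and Smc1a and Smc3 were not called. Medians were 2.20 over the meiotic and 0.50 over the mitotic subunits. Over all genes tested the median was 0.21, with 43.0% higher and 23.2% lower.

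Genes acting on the chromosome axis moved in part, where 43.0% of all genes tested were higher and 23.2% lower. Break formation genes had 2 of the 3 tested higher, Mei1 (1.96) and Ankrd31 (1.90), whose direction the filter set, and Rec114 lower (−0.42), the call of Rec114 being lost as TPM (adjusted p = 0.0861). Spo11, which cuts the DNA to start recombination, was not tested, at 0.02 to 0.05 FPKM in Max-KO and 0 to 0.14 FPKM in WT, and neither were its partner Gm960 (TOPOVIBL) and Mei4. For strand exchange 4 of the 7 tested rose, among them Spata22 at 58.13 to 83.34 FPKM in Max-KO and 0 to 0.62 FPKM in WT (5.89, passing the filter only through Max-KO), Hsf2bp (0.78) and Dmc1 (0.47), and Mnd1 fell by 1.14. Meiob, whose protein works as a pair with SPATA22, was below the filter at 0 to 0.10 FPKM in Max-KO and 0.18 to 0.56 FPKM in WT. Dmc1 was not called under median-ratio scaling (adjusted p = 0.0599) or quantile normalization (0.144). Crossover genes had 3 of the 6 tested higher, Tex11 (3.99), Hfm1 (1.45, filtered in only through Max-KO) and Mlh3 (1.05), and Msh4 was below the filter. Of the telomere attachment genes 4 of the 5 tested were higher, Terb1 (1.27), Terb2 (1.19), Majin (0.98) and Ccdc155 (KASH5; 0.63), all of them under 1 FPKM in WT so that the filter set their direction. With quantiles the calls of Majin (adjusted p = 0.101) and Ccdc155 (0.982) were lost. Meiotic entry genes were higher in 6 of 6 cases, with Dazl (6.82), Ddx4 (4.24), Gm4969 (MEIOSIN; 3.53, filtered in only through Max-KO) and Stra8 (3.34) the largest. The call of Ythdc2 was lost with quantiles (adjusted p = 0.0609). Over these 9 lists together, 33 of 47 tested genes were higher and 3 lower, with a median of 1.05, against 43.0% and 23.2% and a median of 0.21 over all genes tested. Of the 47, 14 were tested only because of their Max-KO level, so that their direction was fixed, and 12 of these were among the 33 called higher. The other 21 were among the 33 genes that passed through both groups.

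**Figure D5:**
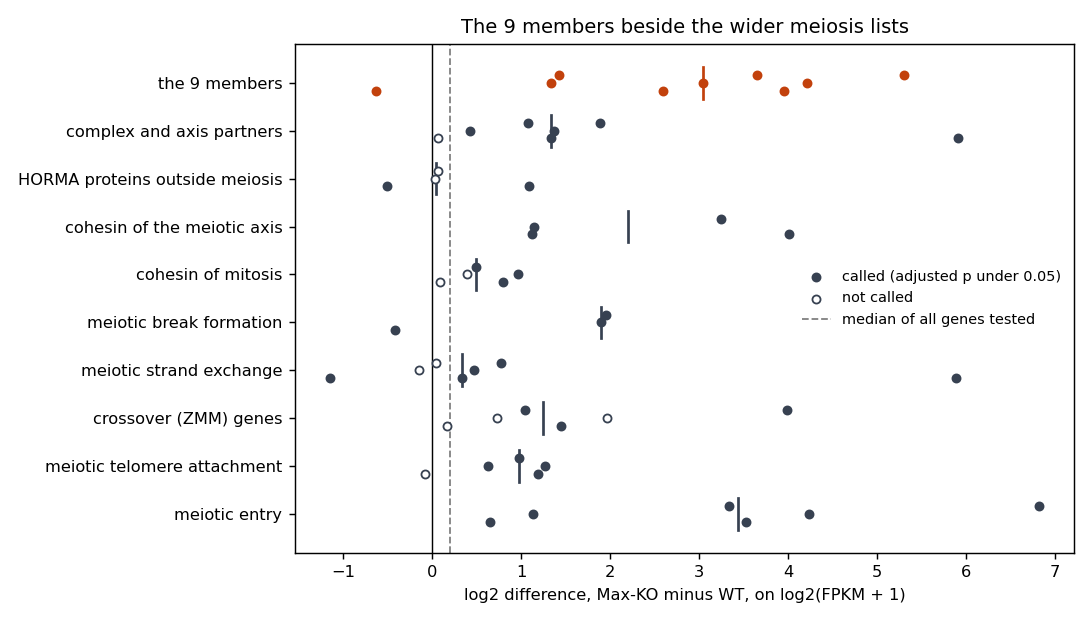
Log2 difference, Max-KO minus WT on log2(FPKM + 1), of each tested gene of the 9 members and of the 9 wider lists; filled circles passed the threshold, open circles did not, and short lines are list medians. The members' median of 3.05 is exceeded by the entry list at 3.43, and the HORMA genes outside meiosis sit at 0.05.

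Among 21950 other protein-coding genes, the one with values nearest to those of Sycp3 over the 6 libraries was Hormad1 (Euclidean distance of log2(FPKM + 1) 0.48), followed by Ddx4 (0.66) and Srgap1 (0.86). For Hormad1 the order was Sycp3 (0.48), Srgap1 (0.74) and Ddx4 (1.00). Sycp1 lay nearest to Fkbp6 (0.98), Mov10l1 (1.43) and Gm49340 (1.77). The annotated span of Gm49340 takes in that of Spata22, from the same start and on the same strand, and sharing of reads was not tested. Syce2 lay nearest to Chchd3 (0.22), the threonyl-tRNA synthetase gene Tars (0.22) and the ribosome assembly gene Nop16 (0.23), each called lower in Max-KO. These likenesses are descriptions over 6 libraries in 2 groups.

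Summed FPKM was 645168 to 658360 in Max-KO and 743406 to 774405 in WT. Low values gave an estimated 21100000 to 28700000 fragments per library. Of 8 embryonic stem cell markers, summed to 3410 to 3570 FPKM in Max-KO and 2800 to 2970 FPKM in WT, 5 were higher and 1 lower, where 43.0% and 23.2% of all genes tested were. Markers of feeder fibroblasts summed to 8.08 to 10.2 FPKM in Max-KO and 8.24 to 8.4 FPKM in WT, with Col1a1 higher of 2 tested. Those of the somatic gonad summed to 2.75 to 4.99 FPKM in Max-KO and 3.29 to 8.19 FPKM in WT. Of 2 tested, Gata4 was higher (filtered in only through Max-KO) and Amhr2 lower, and Fshr was at 0 throughout. Pachytene and later male germ cell markers summed to 11.9 to 14.4 FPKM in Max-KO and 3.98 to 6.41 FPKM in WT. Of these 8 genes 3 were tested, with 2 higher (Ldhc and Hspa2), and Pgk2 and Spag6 were at 0. Spermatid markers summed to 2.47 to 3.18 FPKM in Max-KO and 1.0 to 1.54 FPKM in WT. Of these 8 genes only 1, Tssk6, was tested and it was higher, and Prm2, Tnp2 and Odf1 were at 0. Oocyte markers summed to 6.52 to 7.13 FPKM in Max-KO and 10.8 to 13 FPKM in WT. Of these 8 genes 2 were tested, Bmp15 higher (filtered in only through Max-KO) and Zp3 lower, and Oosp1 was at 0. Without Zp3 the oocyte sum was 2.87 to 3.95 FPKM in Max-KO and 0.54 to 0.7 FPKM in WT.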

How the data were processed

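RNA of 3 Max-KO and 3 WT libraries of mouse embryonic stem cells was extracted with Trizol and made into libraries with an Illumina TruSeq RNA kit, per the labels' protocols. The authors deposited FPKM with 2 decimals, 1 value per gene and library. Tools listed in the submitters' processing notes, with no role or order, are HISAT2 2.1.0, FastQC, DESeq 1.26.0 and RSEM. The build listed there is GRCm38.p6. Identifiers were matched to GENCODE M21 (GRCm38), which held 55450 of 55536 Ensembl identifiers. The other 86, and 1153 unnamed loci, were left out.

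The 14650 genes whose mean reached 1 FPKM in either group were fitted as log2(FPKM + 1) with limma 3.58.1 in R 4.3.3 (genotype only, trend and robust moderation, 2-sided). Calls required an adjusted p under 0.05 (Benjamini-Hochberg, all genes tested). A log2 difference on this scale understates the change of low genes. The fit was tested on simulated data.

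The deposited FPKM do not state depth. In genes with 1 transcript, low values times length fell near whole multiples of 1 step per library (85.5% to 88.4% within 0.15), and fragments were estimated from the steps that brought these values closest. They are approximate for genes with several transcripts.

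Members, lists and tests were chosen with earlier results of these data known. Named genes were the 9 members, up to 4 called genes per list by size with 1 in the opposite direction, genes not called as values, neighbours, and the 3 nearest genes of Sycp3, Sycp1, Hormad1 and Syce2. Values of 2 genes of the wider lists are not reported here, though the counts include them. Promoter letters were searched in RefSeq windows of 300 bases. Alternatives were another pseudocount, 2 other filters, 3 scalings, limma without trend, a replicate block, and leaving out each library. Tables were made in Python 3.11.15 with pandas 2.3.3.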

Additional observations from a re-analysis of the deposited data

How the results depend on the processing

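All 9 members kept direction and call under each of 14 alternatives, so that 8 were higher and 1 lower in all of them. For Sycp2 and Tex12 the main filter had set the direction, as they passed it only through Max-KO. Log2 differences ranged over all settings from 5.04 to 5.85 for Sycp1, 3.75 to 4.21 for Sycp3, 3.73 to 6.96 for Sycp2, 3.37 to 3.90 for Hormad1, 2.79 to 3.41 for Hormad2, 2.41 to 2.84 for Syce1, 0.90 to 1.85 for Syce3 and 0.83 to 3.16 for Tex12. Leaving out 1 library gave 5779 to 6096 genes higher and 3080 to 3317 lower, against 6293 and 3402. The replicate number did not pair the samples (correlations of same-numbered deviations from group means of −0.002, 0.018 and 0.088), and the replicate block gave 6197 higher and 3281 lower and changed no call among the genes named. Without a filter 7417 were higher and 3273 lower. In the wider lists the 33 higher calls became 27 with quantiles, 31 with median ratios and 39 after rescaling to TPM. With a filter on the mean over all 6 libraries they were 29. The 3 lower calls became 4 with median ratios, 4 with quantiles and 1 after rescaling to TPM.

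Genes that had not been called changed sign as follows. Under median-ratio scaling the log2 difference was −0.11 for Mad2l1bp, −0.12 for Mad2l1, −0.16 for Atg101, −0.10 for Smc1a, −0.15 for Psmc3ip, −0.01 for Phactr3 and −0.06 for Gcdh. Under quantile normalization it was −0.20 for Mad2l1bp, −0.03 for Psmc3ip, −0.44 for Phactr3 (called, adjusted p = 0.0408) and −0.03 for Gcdh. After rescaling to TPM it was 0.13 for Sun1, 0.07 for Lif and 0.04 for Max. With 1 library left out it ran from −0.01 (without WT 2) to 0.08 for Atg101, −0.08 (WT 3) to 0.19 for Smc1a, −0.03 (Max-KO 3) to 0.12 for Psmc3ip, −0.19 to 0.12 (Max-KO 3) for Lif and −0.15 (Max-KO 2) to 0.61 for Zfp941. Calls were gained as TPM by Mad2l1 (adjusted p = 0.00322), Atg101 (0.00686), Mad2l1bp (0.0117), Psmc3ip (0.0365) and Gcdh (0.00603), all higher, with median ratios by Sun1 (lower, 0.0158) and Max (lower, 0.0135), and with quantiles by Lif (lower, 0.0381) and 4930432K21Rik (lower, 0.00378). Gm42816 was called higher without Max-KO 3 (2.10e-04). The causes were not tested. Members at few fragments, Tex12, Syce3 and Sycp2 in WT, are limited by depth.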

Other observations

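In Max-KO 2 alone, 3 of the tested protein-coding genes looked at stood well above the other Max-KO libraries: AI481877 (SHOC1) at 15.31 FPKM against 1.48 and 2.20 FPKM, Msh5 at 6.26 FPKM against 0.39 and 0.41 FPKM, and Zfp941 at 18.56 FPKM against 5.80 and 6.15 FPKM. In WT they were at 0.24 to 0.40, 0.27 to 0.85 and 6.35 to 7.28 FPKM. None of the 3 was called. The pseudogene Gm33952 within Sycp1 likewise stood at 3.24 FPKM in Max-KO 2 against 0.55 and 0.72 FPKM, and it was called higher. AI481877 (limma adjusted p = 0.0547) was called without Max-KO 2 (log2 difference 1.12, adjusted p = 0.00212), without Max-KO 1 (0.032), with a pseudocount of 0.1 FPKM (0.0107), as TPM (0.0318) and in limma without trend (0.0447). Its highest adjusted p over the alternatives was 0.157. These genes were picked after their values were seen.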
